A study of Homo sapiens with 4 samples.

Results

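The proteasome genes were followed through the lists of mRNAs called differentially expressed after sonodynamic therapy (SDT) with HMME-LND nanobubbles in HepG2 and Huh7 cells. Members were the protein-coding genes of GENCODE release 29 whose symbol is PSM, a letter from A to G and a number, which gave 48 genes of 19951. A member was called listed when its Ensembl identifier stood under any GO term in the deposited table of a comparison, and the members were not chosen by any measured value. The lists therefore hold the called mRNAs that have a GO term and are shorter than the full sets of called mRNAs, which were not analysed here. HepG2 and Huh7 are established human cell lines, which the paper gives as hepatocellular carcinoma, although HepG2 is generally held to come from a hepatoblastoma. In SDT, low-frequency ultrasound excites a sensitizer taken up by cells, here hematoporphyrin monomethyl ether (HMME), which targeted nanobubbles filled with C3F8 carried together with the drug lonidamine (LND). After removal of ribosomal RNA, 1 RNA library was sequenced for each of 4 groups. Group A was HepG2 before treatment, group B was HepG2 after treatment, group C was Huh7 before treatment and group D was Huh7 after treatment. Ultrasound, HMME, LND and the nanobubble were given together, so their shares in a difference between groups cannot be told apart. The tables name which genes were called and hold no expression value, no fold change and no direction, so that "listed" means different between 2 libraries and not higher or lower. With 1 library in each group, no listing has a replicate check. Library depth is unknown from the tables, and markers of the cell lines could not be read because no levels were given.

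The proteasome is the large protease that degrades most ubiquitin-tagged proteins of the cytoplasm and nucleus. Its core particle is a barrel of outer rings of alpha subunits, which gate entry, and inner rings of beta subunits, which cut the substrate. The regulatory particle binds at the ends of the barrel, where the ATPases (PSMC genes) unfold substrates and the non-ATPases (PSMD genes) bind and remove ubiquitin. Activators of the PSME family open the gate without ubiquitin. Under interferon, the standard catalytic subunits PSMB6, PSMB7 and PSMB5 can be replaced by PSMB9, PSMB10 and PSMB8, which gives the immunoproteasome that makes peptides for HLA class I molecules. Other variants are tissue-restricted, such as PSMA8, the alpha subunit of male germ cells, and PSMB11, the catalytic subunit of the thymic cortex.

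After SDT, 4 of the 48 proteasome genes were listed in at least 1 cell line. PSME3 (ENSG00000131467), which encodes the activator PA28 gamma of the nucleus, was listed in both. The immunoproteasome subunits PSMB8 (ENSG00000204264) and PSMB9 (ENSG00000240065) were listed in HepG2 cells and not in Huh7 cells. PSMA8 (ENSG00000154611) was listed in Huh7 cells and not in HepG2 cells. The other 44 members were in neither list.

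The 300-base promoter windows of these 4 genes are shown because they are the members that carried a call, and PSMB8 has 2 start sites in the table. Each window runs from 250 bases before the RefSeq transcript start to 50 bases after it, on GRCh38.p14. The sequences came from RefSeq and not from the cells. Capitals mark matches to TTCNNNGAA, the palindrome bound by STAT factors, TGACNNNGC, the core of the antioxidant response element bound by NRF factors, or CCAAT, the box bound by NF-Y. Both strands were searched, and the heat shock pattern GAANNTTC was searched too.
PSME3 (chr17:42833147-42833446, + strand): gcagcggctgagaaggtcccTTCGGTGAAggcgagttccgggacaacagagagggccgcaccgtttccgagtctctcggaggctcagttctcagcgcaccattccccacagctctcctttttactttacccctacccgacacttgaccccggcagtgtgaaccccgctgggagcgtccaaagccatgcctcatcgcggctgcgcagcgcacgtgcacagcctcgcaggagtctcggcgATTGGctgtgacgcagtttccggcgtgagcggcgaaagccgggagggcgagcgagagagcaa
PSMB8 (chr6:32844630-32844929, - strand): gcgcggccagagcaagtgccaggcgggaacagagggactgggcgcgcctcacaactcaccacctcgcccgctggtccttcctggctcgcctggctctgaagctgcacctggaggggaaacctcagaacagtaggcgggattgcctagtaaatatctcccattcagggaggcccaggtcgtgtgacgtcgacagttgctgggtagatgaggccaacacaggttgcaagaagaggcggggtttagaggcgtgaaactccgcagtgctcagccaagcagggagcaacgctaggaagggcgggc
PSMB8 (chr6:32843998-32844297, - strand): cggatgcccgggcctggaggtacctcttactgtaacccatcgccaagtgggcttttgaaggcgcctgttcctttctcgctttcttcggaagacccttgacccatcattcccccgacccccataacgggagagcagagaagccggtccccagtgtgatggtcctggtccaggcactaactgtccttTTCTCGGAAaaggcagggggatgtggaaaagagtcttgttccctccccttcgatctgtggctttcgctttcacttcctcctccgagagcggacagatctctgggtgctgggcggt
PSMB9 (chr6:32853942-32854241, + strand): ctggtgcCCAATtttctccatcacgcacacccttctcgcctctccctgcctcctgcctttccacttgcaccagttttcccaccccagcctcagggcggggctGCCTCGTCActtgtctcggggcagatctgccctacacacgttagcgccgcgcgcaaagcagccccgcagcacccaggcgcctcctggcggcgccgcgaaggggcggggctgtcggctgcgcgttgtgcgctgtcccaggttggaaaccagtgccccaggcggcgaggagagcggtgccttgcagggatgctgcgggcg
PSMA8 (chr18:26133619-26133918, + strand): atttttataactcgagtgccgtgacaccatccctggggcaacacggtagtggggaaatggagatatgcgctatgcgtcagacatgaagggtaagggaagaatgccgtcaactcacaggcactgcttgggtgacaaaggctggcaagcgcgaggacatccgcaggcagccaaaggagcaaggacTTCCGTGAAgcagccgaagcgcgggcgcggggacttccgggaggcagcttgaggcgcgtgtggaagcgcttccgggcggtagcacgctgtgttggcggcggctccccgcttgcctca

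**Figure D1:**
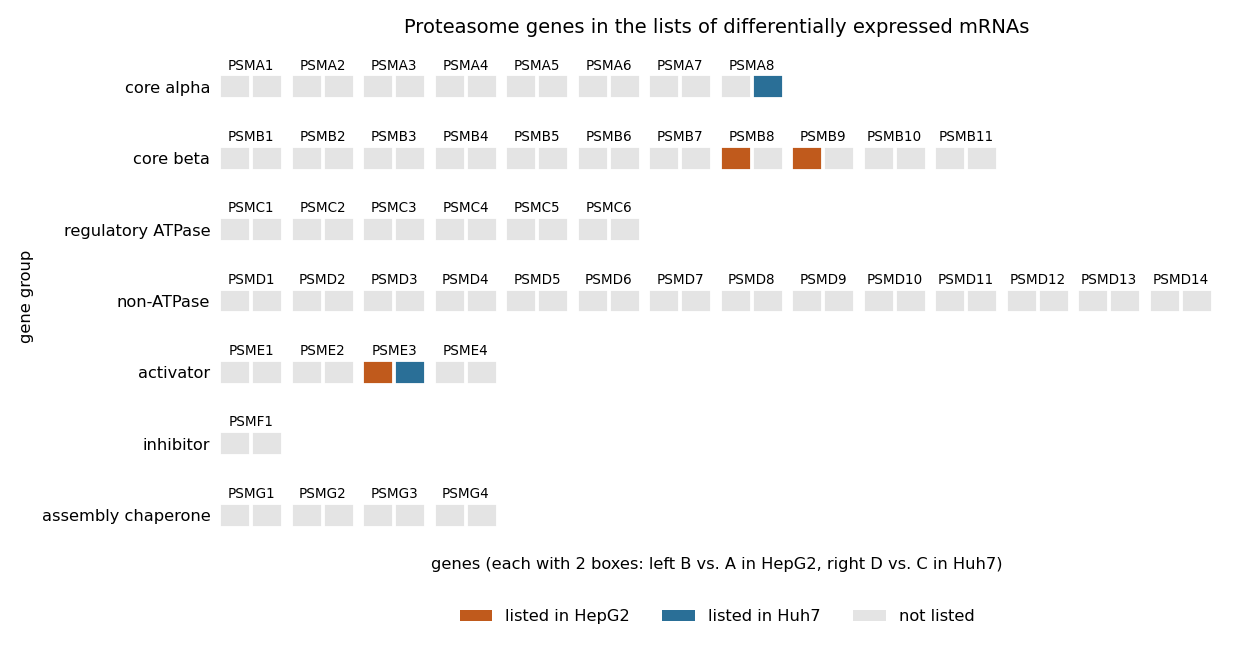
Each proteasome gene, in rows by class, with its left box for group B vs. A in HepG2 cells and its right box for group D vs. C in Huh7 cells; a filled box marks a listed gene and a grey box a gene that was not listed. The filled boxes are PSMB8 and PSMB9 in HepG2 cells, PSMA8 in Huh7 cells and PSME3 in both.

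In HepG2 cells, 3 of 48 members (6.25%) were listed in group B vs. A, with a 95% Wilson confidence interval of 2.15% to 16.8%. Among all protein-coding genes, 4768 of 19951 were listed, or 23.9%. In Huh7 cells, 2 of 48 members (4.17%, interval 1.15% to 14.0%) were listed in group D vs. C, against 4360 protein-coding genes, or 21.9%. Thus the share of proteasome genes listed was below the share of all protein-coding genes in both cell lines. The intervals count genes as if they were independent draws and hold no replicate error, and no test of the difference was made. A member could be missing from a list because it passed no threshold or because it was not tested, and these cannot be told apart from the tables. A called gene without a GO term could still stand in the KEGG tables, where 17 such genes were found for HepG2 and 12 for Huh7, with 0 members among them.

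PSME3 was the only member in both lists, which is 1 of the 3 HepG2 members (33.3%) and 1 of the 2 Huh7 members. Over all protein-coding genes, 2276 (11.4%) were listed in both cell lines, which is 47.7% of the HepG2 list and 52.2% of the Huh7 list. The 4 members listed in either cell line were 8.33% of the family, against 34.3% of all protein-coding genes.

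The alpha and beta subunits of the core were taken first. The standard alpha subunits PSMA1 to PSMA7 form the outer rings and were not listed in either cell line. PSMA8, a close relative of PSMA7 that is known for its role in sperm formation, was the listed alpha gene, so that 0 of 8 alpha genes were in the HepG2 list and 1 of 8 (12.5%) in the Huh7 list. The standard beta subunits PSMB1 to PSMB7, of which PSMB5, PSMB6 and PSMB7 are catalytic, were in neither list. Among the 11 beta genes, 2 (18.2%, Wilson interval 5.14% to 47.7%) stood in the HepG2 list and 0 in the Huh7 list. Over all protein-coding genes the shares were 23.9% for HepG2 and 21.9% for Huh7. The shares of the alpha and beta genes were not above these values, and their Wilson intervals reached past them. Both listed beta genes were inducible subunits. The third inducible subunit, PSMB10, which replaces PSMB7, was in neither list, and neither was PSMB11. The call of PSMB8 and PSMB9 in HepG2 cells and not in Huh7 cells is not a tested difference between the cell lines, since the tables hold no values.

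In the regulatory particle, 0 of the 6 ATPase genes PSMC1 to PSMC6 and 0 of the 14 non-ATPase genes PSMD1 to PSMD14 were listed in either cell line. These 14 genes include PSMD14, the deubiquitinase of the lid, PSMD1 and PSMD2, the large scaffold subunits of the base, and PSMD4, a ubiquitin receptor. They also include PSMD5, PSMD9 and PSMD10, which act as chaperones of assembly and are not part of the mature particle. When the standard core genes and the PSMC and PSMD genes were put together, 0 of 34 were listed in either comparison, and the Wilson interval of such a share reaches 10.2%. The remaining 14 members were the inducible, tissue-restricted, activating and inhibiting genes and the PSMG assembly genes. They held all calls of the family, 3 of 14 (21.4%) for HepG2 and 2 of 14 (14.3%) for Huh7. Over all protein-coding genes the shares were 23.9% and 21.9%, so the shares of the 14 were not above them. This division of the family was made with the calls known and is a description.

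Among the 4 activator genes, PSME3 was listed in both cell lines. PSME1 and PSME2, which form the interferon-inducible activator of the cytoplasm, were not listed, and PSME4, which encodes the large activator PA200, was not listed. The inhibitor PSMF1 (PI31) and the assembly chaperones PSMG1 to PSMG4, which guide the formation of the alpha ring, were not listed either.

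**Figure D2:**
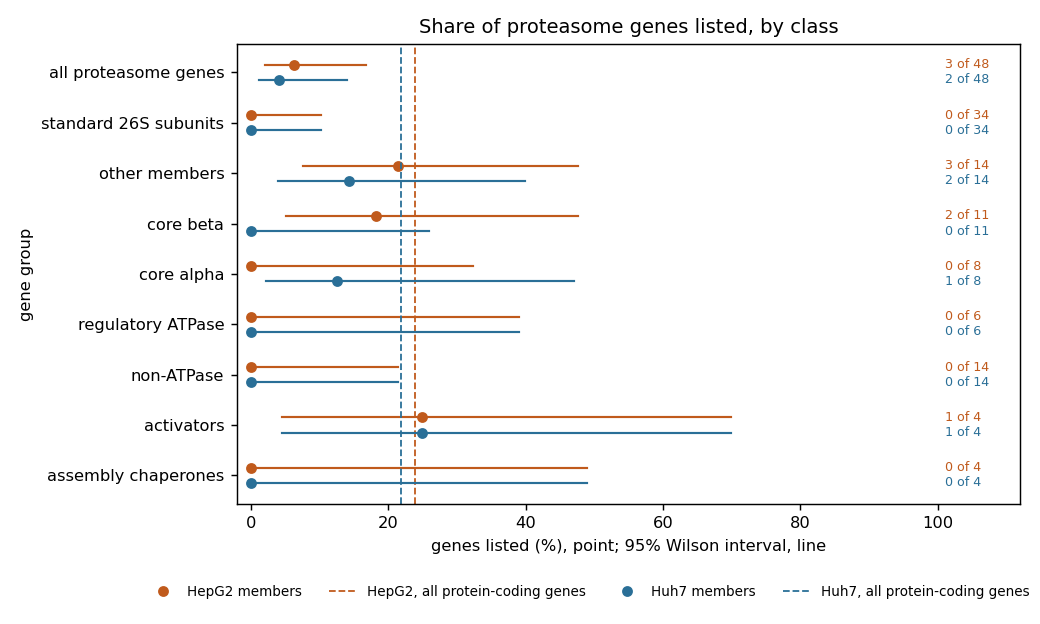
Share of genes listed (percent, points) by class in HepG2 and Huh7 cells with 95% Wilson intervals (lines), the numbers listed at the right and the share of all protein-coding genes as dashed lines at 23.9% and 21.9%. All proteasome genes together lie at 6.25% and 4.17%. The row of standard 26S subunits, which holds the 34 standard core, PSMC and PSMD genes with the chaperones PSMD5, PSMD9 and PSMD10, lies at 0.

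The terms under which a listed member stands describe its annotation and not its change. PSME3 stood under 137 GO terms in each cell line, and these were the same 137 terms. PSMB8 stood under 119 terms and PSMB9 under 91 in HepG2 cells, and PSMA8 stood under 66 in Huh7 cells, where the median listed gene stood under 87. Of the 91 terms of PSMB9, 90 were also terms of PSMB8. Of the 66 terms of PSMA8, 65 were also terms of PSMB8 in the other cell line, and all 3 encode core subunits.

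The terms of PSMB8 beyond those of PSMB9 included the response to type I interferon, the antiviral cytokine family. In HepG2 cells, 22 of the 131 background genes of that term (16.8%) were listed. PSMB8 was also listed under fat cell differentiation, with 80 of 235 genes (34.0%), and under antigen processing and presentation, with 31 of 317 genes (9.78%). For comparison, the HepG2 list held 21.6% of the whole GO background and the Huh7 list 19.7%.

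PSME3 carried terms of cell cycle and cell death. Binding to MDM2 and MDM4, the inhibitors of p53, was a term of 7 genes, of which the HepG2 list held 4 and the Huh7 list 2. The term p53 binding held 15 of 76 genes (19.7%) and 11 of 76 (14.5%). Regulation of the extrinsic apoptotic signaling pathway, which is started by death receptors, held 46 of 165 genes (27.9%) in the HepG2 list and 45 of 165 (27.3%) in the Huh7 list. Regulation of the G1/S transition of the mitotic cell cycle held 41 of 187 genes (21.9%) and 25 of 187 (13.4%). PSME3 is 1 gene in each of these numbers. Of the whole GO background, the HepG2 list held 21.6% and the Huh7 list 19.7%, and the shares of these terms lay on both sides. The terms are a selection from the 137 of PSME3, and no test of them was made.

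The deposited tables were then read for the complex as a whole. Under proteasome complex, 4 of 85 background genes (4.71%) were listed in each cell line. In HepG2 cells these were PSMB8, PSMB9, PSME3 and ZFAND2A, and in Huh7 cells PSMA8, PSME3, USP14 and ZFAND2A. Under proteasome core complex, 2 of 39 genes (5.13%) were in the HepG2 list and 1 of 39 (2.56%) in the Huh7 list. Proteasome accessory complex, which covers the regulatory particle and the activators, held 1 of 28 genes (3.57%) in each, and this was PSME3. In the KEGG pathway Proteasome, 3 of 44 genes (6.82%) were in the HepG2 list and 2 of 44 (4.55%) in the Huh7 list, and these were the same members as in the GO tables. PSME3 was also listed under the KEGG pathways Antigen processing and presentation (19 of 79 genes in HepG2 cells, 21 of 79 in Huh7 cells) and Hepatitis C (35 and 22 of 133).

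The processes that lead to the proteasome held larger shares of listed genes than the complex itself. Beside them, the HepG2 list held 21.6% of the whole GO background and the Huh7 list 19.7%. In Huh7 cells the shares of the degradation terms given below lay under that value, and in HepG2 cells they lay on both sides of it. Regulation terms went both ways in Huh7 cells. Positive regulation of proteasomal protein catabolic process held 21 of 100 genes (21.0%) there, and negative regulation held 5 of 47 (10.6%). Proteasomal protein catabolic process held 96 of 475 genes (20.2%) in the HepG2 list and 71 of 475 (14.9%) in the Huh7 list, of which 3 and 2 were members. Degradation that depends on the anaphase-promoting complex, the ubiquitin ligase of mitosis, held 10 of 37 genes (27.0%) in the HepG2 list and 6 (16.2%) in the Huh7 list, with no member among them. Degradation through SCF ligases held 9 of 40 genes (22.5%) and 5 (12.5%), and in Huh7 cells these were AMN1, CCNF, FBXL7, FBXO4 and SKP2. Degradation without ubiquitin held 3 of 40 genes in HepG2 cells (ENC1, PSMB8 and PSMB9) and 2 in Huh7 cells (ENC1 and PSMA8). These terms overlap, and no test between them was made. Genes named here outside the family were chosen after the lists were seen.

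Proteasome binding was a term that held more genes in Huh7 cells, with 5 of 24 (20.8%) against 2 of 24 (8.33%) in HepG2 cells. Among these genes, the deubiquitinase USP13 was listed in both cell lines. USP14, ID1 and UBD were listed in Huh7 cells and not in HepG2 cells. UBD encodes FAT10, an interferon-inducible ubiquitin-like tag that sends proteins to the proteasome.

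**Figure D3:**
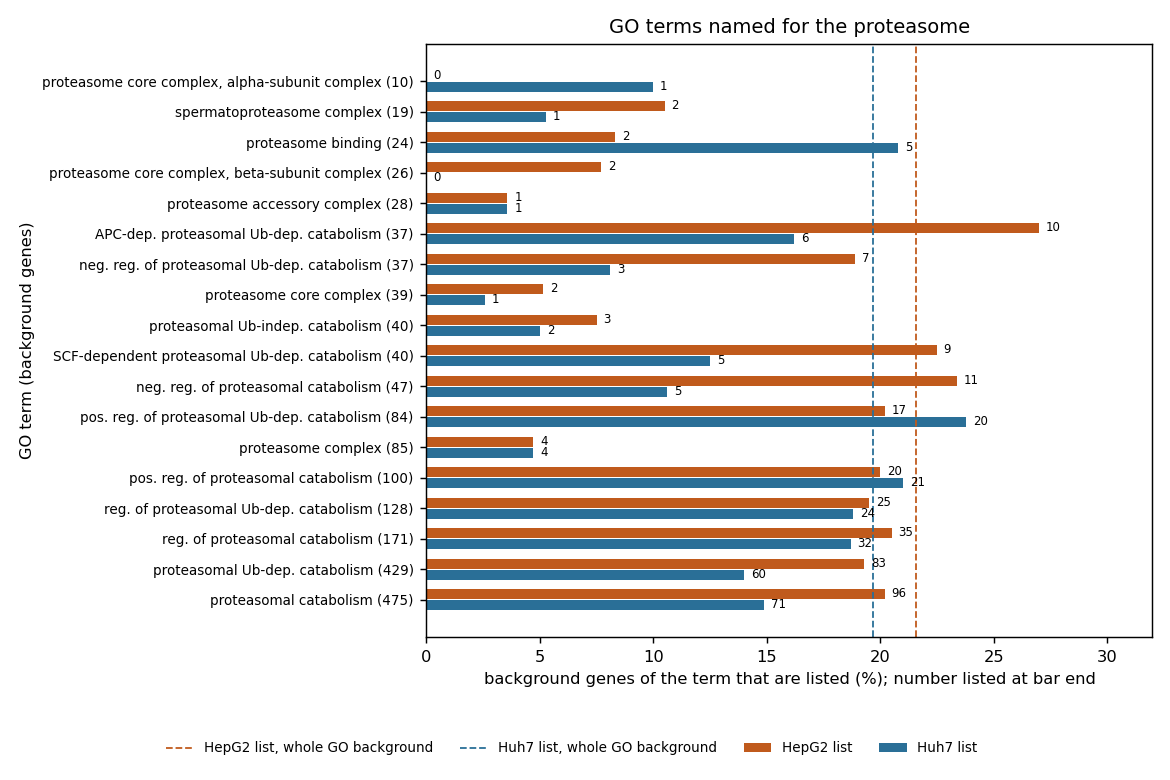
Percent of the background genes of each GO term named for the proteasome, with at least 10 background genes, that were listed in HepG2 and Huh7 cells; the number listed stands at the bar end and the dashed lines mark 21.6% and 19.7%, the shares of the whole GO background. The complex terms lie at 4.71% and below or rest on 1 or 2 genes, and in HepG2 cells the ubiquitin-dependent catabolic terms lie nearer the dashed line.

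Further genes of the ubiquitin-proteasome pathway were taken from 7 lists of 56 genes in all. The HepG2 list held 6 of them (10.7%) and the Huh7 list 5 (8.93%), beside 23.9% and 21.9% of all protein-coding genes. ZFAND2A, which encodes AIRAP, an arsenite-inducible protein that binds the proteasome, was listed in both cell lines. The ubiquitin genes UBB and RPS27A and the activating enzymes UBA1 and UBA6 were not listed.

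Transcription factors of proteasome genes were also among the 56. IRF1, which drives immunoproteasome genes under interferon, was listed in HepG2 cells. NFE2L3, a relative of NFE2L1, was listed in Huh7 cells. NFE2L1, the factor that raises proteasome genes when the proteasome is blocked, and NFE2L2, the main factor of the oxidative stress response, were in neither list, and neither were NGLY1 and DDI2, which process NFE2L1.

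Of the genes for trimming and presentation of peptides, 1 of 9 was listed, TAP2 in HepG2 cells. TAP2 forms the peptide transporter of the endoplasmic reticulum together with TAP1, which was not listed. AKIRIN2, which carries proteasomes into the nucleus, and MIDN, which delivers nuclear proteins to the proteasome without ubiquitin, were listed in HepG2 cells. USP14, the deubiquitinase of the regulatory particle, was listed in Huh7 cells. The subunits ADRM1 and SEM1 and the maturation factor POMP were not listed, and 0 of the 6 genes of the VCP unfolding machinery were listed in either cell line.

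The neighbours of the listed members in the order of protein-coding genes on GRCh38.p14 were also looked up. PSMB8 and PSMB9 lie in the HLA class II region, in the order TAP2, PSMB8, TAP1 and PSMB9. Of these 4 genes, TAP2, PSMB8 and PSMB9 were listed in HepG2 cells and not in Huh7 cells, and TAP1 was in neither list. PSMB8 and PSMB9 are the members for which the region was looked up. Over all protein-coding genes, 23.9% were in the HepG2 list, 21.9% in the Huh7 list and 11.4% in both. Before TAP2 lie HLA-DQB2, in neither list, and HLA-DOB, listed in both cell lines. After PSMB9 lie HLA-DMB, in neither list, HLA-DMA, listed in Huh7 cells and not in HepG2 cells, and BRD2, listed in HepG2 cells and not in Huh7 cells. PSME3 is followed by AOC2 and AOC3, amine oxidase genes, which were both listed in both cell lines, and then by G6PC1, which was not matched. Before PSME3 lie COA3, CNTD1 and the autophagy gene BECN1, which were in neither list. PSMA8 is followed by TAF4B, a transcription factor subunit of germ cells, which was listed in Huh7 cells and not in HepG2 cells. Next come KCTD1, in neither list, and AQP4, listed in Huh7 cells and not in HepG2 cells. Before PSMA8 lie HRH4, listed in HepG2 cells and not in Huh7 cells, and ZNF521 and SS18, in neither list. Whether neighbouring genes were counted apart was not tested, because the tables hold no reads.

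In the promoter windows, TTCNNNGAA was found in PSME3 at bases 21 to 29 (TTCGGTGAA), in PSMA8 at bases 184 to 192 (TTCCGTGAA) and in the downstream window of PSMB8 at bases 186 to 194 (TTCTCGGAA), counted from the first base of the window. The pattern was in 8 of 51 member windows (15.7%), against 7.66% of 35116 windows of all genes. TGACNNNGC was in the PSMB9 window on the reverse strand at bases 103 to 111 (GCCTCGTCA), in 15 member windows (29.4%) and in 13.3% of all windows. CCAAT was in 20 member windows (39.2%) and in 34.6% of all, among them those of PSME3 on the reverse strand and PSMB9. GAANNTTC was in 0 of 51 member windows and in 6.77% of all. The median GC content was 62.0% over member windows and 58.7% over all windows, and its part in these motif shares was not tested. Windows were at hand for 42 of 48 members. PSMA7, PSMB1, PSMB6, PSMB7, PSMD4 and PSMG3 had no entry. A match is a run of letters and not a bound site.

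Proteasome genes have short transcripts. The longest coding transcript in GENCODE had a median of 1630.5 bases over the 48 members, from 773 in PSMB3 to 7099 in PSME4, against 2935 bases over all protein-coding genes and 3126 and 3090.5 over those listed in HepG2 and Huh7 cells. It was 3366 bases in PSME3, 1804 in PSMA8, 1351 in PSMB8 and 792 in PSMB9. The part of transcript length in the calls was not tested.

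Stretches of 75 bases, a length chosen here, were taken as unique when no annotated transcript of another gene contained them. They made up 76.5% to 100% of the distinct stretches of a member, and over 90% in 42 of 48. The 6 members at or below 90% were PSMA1, PSMA2, PSMA6, PSMB10, PSMC1 and PSMD9, and 0 of these were listed. PSMB8 and PSMA8 shared no stretch with another gene, and PSMB9 shared 2.07% of its stretches with PSMB8-AS1, the noncoding RNA gene beside it, and whether the counting used strand was not given in the sources used here. PSMB10 shared 23.5% with AC040162.1, an overlapping protein-coding gene of the annotation, and PSMC1 shared 18.4% with its pseudogene PSMC1P1. The values of these 6 genes are uncertain where the counting could split reads, and the read length is unknown from the tables.

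**Figure D4:**
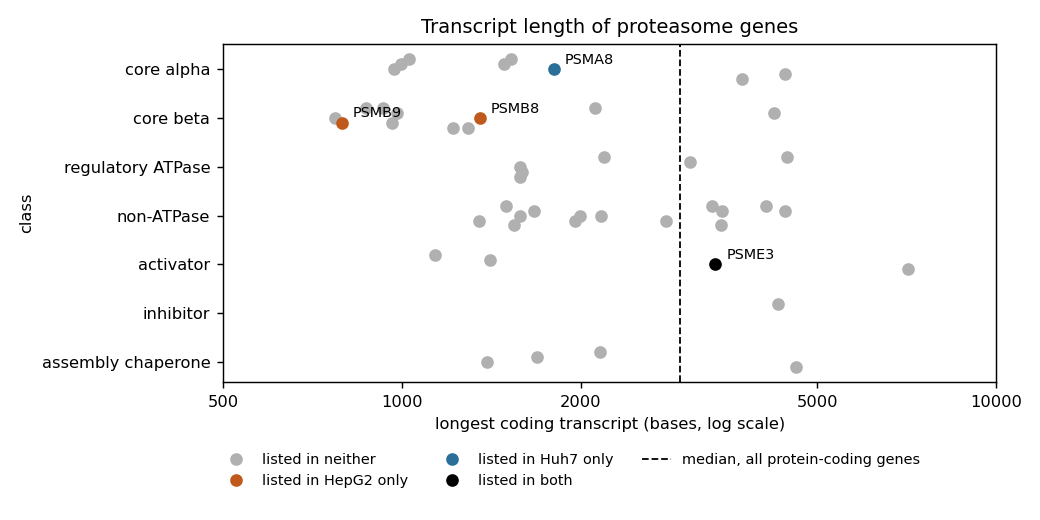
Longest coding transcript (bases, log scale) of each proteasome gene by class, coloured by the list it stood in, with the median of all protein-coding genes as a dashed line. PSME3 lies at 3366 bases, to the right of the line at 2935, and PSMA8, PSMB8 and PSMB9 lie to the left of it.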

How the data were processed

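Per the labels, the processing notes of the submitters name Bowtie2 2.2.8, HISAT2, StringTie 1.3.1 and Cuffdiff 2.1.1, and the paper names both Cuffdiff (methods) and edgeR (results) for the calls. The authors called mRNAs at an adjusted p-value under 0.05, tested GO terms with GOseq and pathways with KOBAS, and deposited 4 tables of terms, each with numbers of listed and background genes, identifiers, p-values and corrected p-values. The p-values are the authors' comparisons and were not used here. The genome build and annotation are not given in the sources used here.

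Each list was rebuilt by collecting every identifier found under any GO term (4783 genes for HepG2, 4369 for Huh7), which matched the list totals printed in the tables. Called mRNAs outside these lists do not enter the shares and overlaps. The members and the lists of genes were chosen with earlier results of these data known. Every member was named by class, every listed member was described, and promoters of members in a single list were added after the lists were seen. Symbols, gene types and transcripts came from GENCODE release 29 by identifier, and all 48 members matched. Wilson intervals (95%) used SciPy 1.17.1 in Python 3.11.15. The reading of the tables was tested on simulated data. No test between groups was possible because the tables hold no values per library, and no set test was made. Alternatives are given in the closing section. Noncoding transcripts were not analysed here, and some genes of the pathway lists are counted but not reported here by name.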

Additional observations from a re-analysis of the deposited data

How the results depend on the processing

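The counts of listed members (HepG2 3, Huh7 2, shared 1) were recounted under 7 other settings, and only the Huh7 count moved. It was 1 of 46 without the tissue-restricted genes PSMA8 and PSMB11. The share of all genes listed was 21.6% for HepG2 and 19.7% for Huh7 over the authors' GO background of 22148 genes, in place of 23.9% and 21.9% of protein-coding genes. The counts stayed at 3, 2 and 1 when genes of the KEGG tables were added or used alone, when a gene had to stand under at least 2 terms, when PSMF1 and the PSMG genes were left out (43 genes), when ADRM1, SEM1 and POMP were added (51 genes), and with symbols from the table of gene identifiers. No replicate could be left out. No paired analysis was possible because the tables hold no values per library and the labels no replicate numbers. Counts this small move by a large part when a single gene is called or not, and the depth behind a call was not used here.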

Other observations

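Other large complexes of housekeeping genes gave the following counts, which were not compared by a test. Of the 10 genes of the COP9 signalosome, whose subunits are related to the proteasome lid, 1 was listed in HepG2 cells (COPS7A) and 0 in Huh7 cells. Of the 13 genes of the translation initiation factor eIF3, which shares the same fold, and of the 8 genes of the CCT chaperonin, 0 were listed in either cell line. Of 82 ribosomal protein genes, 3 (3.66%) were listed in each cell line. RPL3L, a paralog of striated muscle, was listed in both, RPS19 and RPS27L in HepG2 cells, and RPL10L, a paralog of testis, and RPS28 in Huh7 cells.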
